A study of Rattus norvegicus with 6 samples.

Results

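The 10 genes described here are the immediate early response genes Fos, Fosb, Jun, Junb, Egr1, Atf3, Ier2, Ier3, Myc and Zfp36, measured in whole liver of rats given pregnenolone-16α-carbonitrile (PCN) or corn oil alone. They were chosen by symbol, through the transcript accession of each array probe, and each is read by 1 of the 30367 probes that are not controls. Of the 10, 9 were tested, among 16389 genes and features that passed a filter on dim probes. Fos was not, since on none of the 6 arrays did its probe stand well above background. The PCN group held 3 male Wistar Hannover rats dosed at 100 mg/kg per day for 7 days, and the control group held 3 males of the same strain given the corn oil vehicle alone over the same 7 days. All 6 rats were bought at 4 weeks of age and kept for 1 week before dosing, with food and water freely available. PCN, a laboratory-made steroid, is the classic ligand of the rodent pregnane X receptor, a liver sensor of foreign compounds. The comparison bears on whether early genes differ once dosing has gone on for days. How long after the last dose the livers were taken is not stated in the labels.

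Immediate early genes are switched on within minutes of a growth factor, stress or handling stimulus, from factors already present in the cell and without new protein synthesis. Their mRNAs are as a rule short-lived, so an mRNA level read at one moment mostly reflects recent signalling. In liver they are best known for the burst that follows partial hepatectomy, injury and inflammation. Fos, Fosb, Jun and Junb encode subunits of the dimeric transcription factor AP-1, and Atf3 encodes a related bZIP (basic leucine zipper) factor. Egr1 encodes a zinc finger transcription factor and Myc a helix-loop-helix regulator of growth genes. Ier2 and Ier3 encode small early response proteins, and Zfp36 encodes tristetraprolin, which promotes decay of AU-rich mRNAs.

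Promoter sequence was at hand for 5 of the 10 genes, and is shown because such windows can carry the elements through which such genes are known to be switched on. The RefSeq promoter table for the GRCr8 build matched Fosb, Junb, Egr1, Ier2 and Zfp36 by symbol. The array design names the older build rn4, so these positions are not those of the probes. Each window is the 250 bases before the annotated start, 5′ to 3′ on the strand of the gene. They lie at chr1:88089185-88089434 (minus strand) for Fosb, chr19:40080876-40081125 (plus) for Junb, chr18:26736828-26737077 (plus) for Egr1, chr19:40399123-40399372 (plus) for Ier2 and chr1:92799109-92799358 (minus) for Zfp36. Capitals mark exact matches, on either strand, to the CArG box, to the cyclic AMP response element (CRE) TGACGTCA, to the EGR motif GCGGGGGCG and to the TATA motif TATAAA.
Fosb: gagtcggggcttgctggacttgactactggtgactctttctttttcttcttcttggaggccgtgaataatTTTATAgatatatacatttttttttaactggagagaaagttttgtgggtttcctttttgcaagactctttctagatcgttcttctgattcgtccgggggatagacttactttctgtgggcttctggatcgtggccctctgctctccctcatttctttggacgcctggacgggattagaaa
Junb: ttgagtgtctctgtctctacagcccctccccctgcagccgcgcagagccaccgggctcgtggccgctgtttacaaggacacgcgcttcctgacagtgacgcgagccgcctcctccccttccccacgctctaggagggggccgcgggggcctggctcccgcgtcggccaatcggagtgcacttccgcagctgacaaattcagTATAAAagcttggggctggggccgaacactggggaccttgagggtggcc
Egr1: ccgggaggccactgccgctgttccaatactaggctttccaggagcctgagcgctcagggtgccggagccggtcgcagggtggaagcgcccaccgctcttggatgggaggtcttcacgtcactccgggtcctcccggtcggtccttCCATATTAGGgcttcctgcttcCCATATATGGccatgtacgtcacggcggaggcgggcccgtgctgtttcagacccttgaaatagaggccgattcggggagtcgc
Ier2: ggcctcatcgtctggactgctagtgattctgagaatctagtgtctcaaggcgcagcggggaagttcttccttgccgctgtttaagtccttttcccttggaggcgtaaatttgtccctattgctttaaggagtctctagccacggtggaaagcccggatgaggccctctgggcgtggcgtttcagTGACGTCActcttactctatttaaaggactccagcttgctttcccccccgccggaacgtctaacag
Zfp36: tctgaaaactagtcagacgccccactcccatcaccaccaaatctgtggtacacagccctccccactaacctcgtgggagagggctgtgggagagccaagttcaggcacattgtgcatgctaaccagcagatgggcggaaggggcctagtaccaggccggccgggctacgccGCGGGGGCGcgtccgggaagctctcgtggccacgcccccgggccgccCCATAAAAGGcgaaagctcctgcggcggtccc

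The Egr1 window held 2 CArG boxes, the element bound by serum response factor, at 105 to 96 and 83 to 74 bases before the start. Zfp36 held 1, at 32 to 23 bases, and an EGR match at 79 to 71 bases. Over 27455 windows of the same length in the table, 1.5% held a CArG box and 2.49% this EGR form. Ier2 held the full CRE at 66 to 59 bases before the start, which 1.7% of windows held. The short CRE core TGACG was matched in 3 of the 5 windows (Junb, Egr1 and Ier2), against 19% of all windows, and both matches in Ier2 lie inside its full CRE. TATAAA was matched in Junb at 49 to 44 bases before the start and in Fosb on the opposite strand at 180 to 175, against 13.1% of all windows. The Sp1 motif GGGCGG was matched in Zfp36, at 119 to 114 and, on the opposite strand, at 37 to 32 bases, where it overlaps the CArG box, against 32.4% of all windows. The AP-1 motif TGACTCA and the EGR form GCGTGGGCG had no match in the 5 windows, and 3.98% and 0.514% of all windows held them. A match is a description of these letters only.

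**Figure D1:**
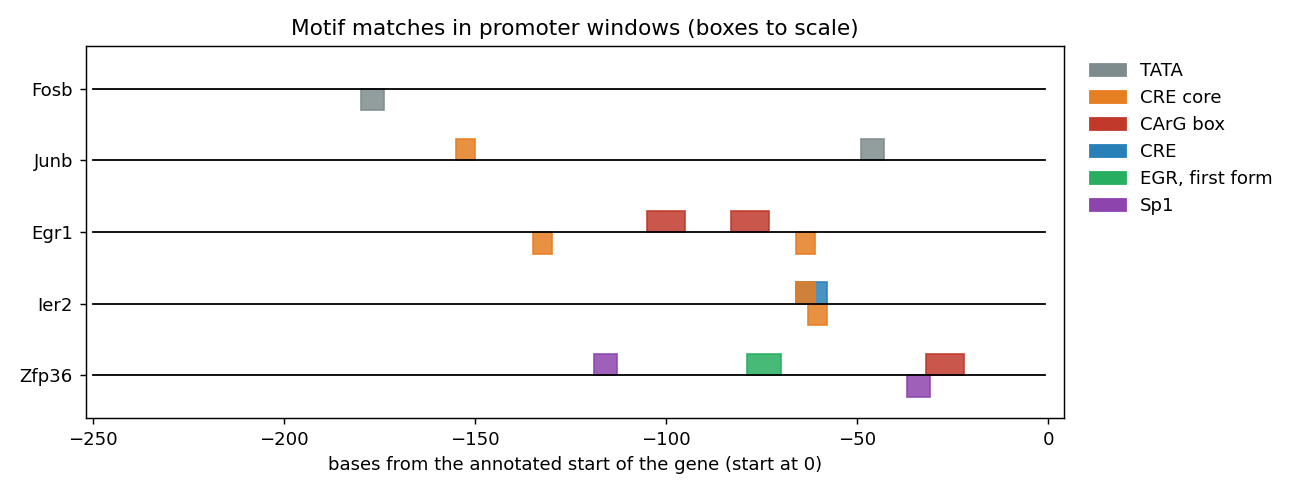
Motif matches in the 250 bases before the annotated start of 5 immediate early genes. The x axis is distance in bases from the start, boxes above a line are matches on the gene's strand and boxes below it matches on the opposite strand. The 2 CArG boxes of Egr1 lie at 105 to 74 bases, and the TGACG cores of Ier2 lie inside its CRE.

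After 7 days of PCN, 0 of the 9 tested immediate early genes rose and 1, the AP-1 subunit Fosb, fell. Values are log2 of the processed signal of a probe over the 75th percentile of its array, called log2 level here, and changes are PCN minus control from a limma fit over all tested genes, called at a Benjamini-Hochberg adjusted p under 0.05. In that fit 15.5% of all tested genes were lower and 4.37% higher, 19.9% in all, so 1 called member of 9 is not above the share over all genes. Without adjustment, 1 of 9 had p under 0.05, against 34.5% of all tested genes. The median log2 fold change was −0.32 over the 9 members and −0.06 over all tested genes. The average was lower with PCN for 7 of 9, against 57.6% of all tested genes, and higher for Jun and Ier2, but Atf3, Ier3 and Myc turned to 0.024, 0.013 and 0.090 under median scaling and Ier2 to −0.10 under spike-in scaling. Those scalings set the median of all genes at 0.27 and −0.31. In bulk liver, fewer cells of a type and less RNA per cell cannot be told apart.

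**Figure D2:**
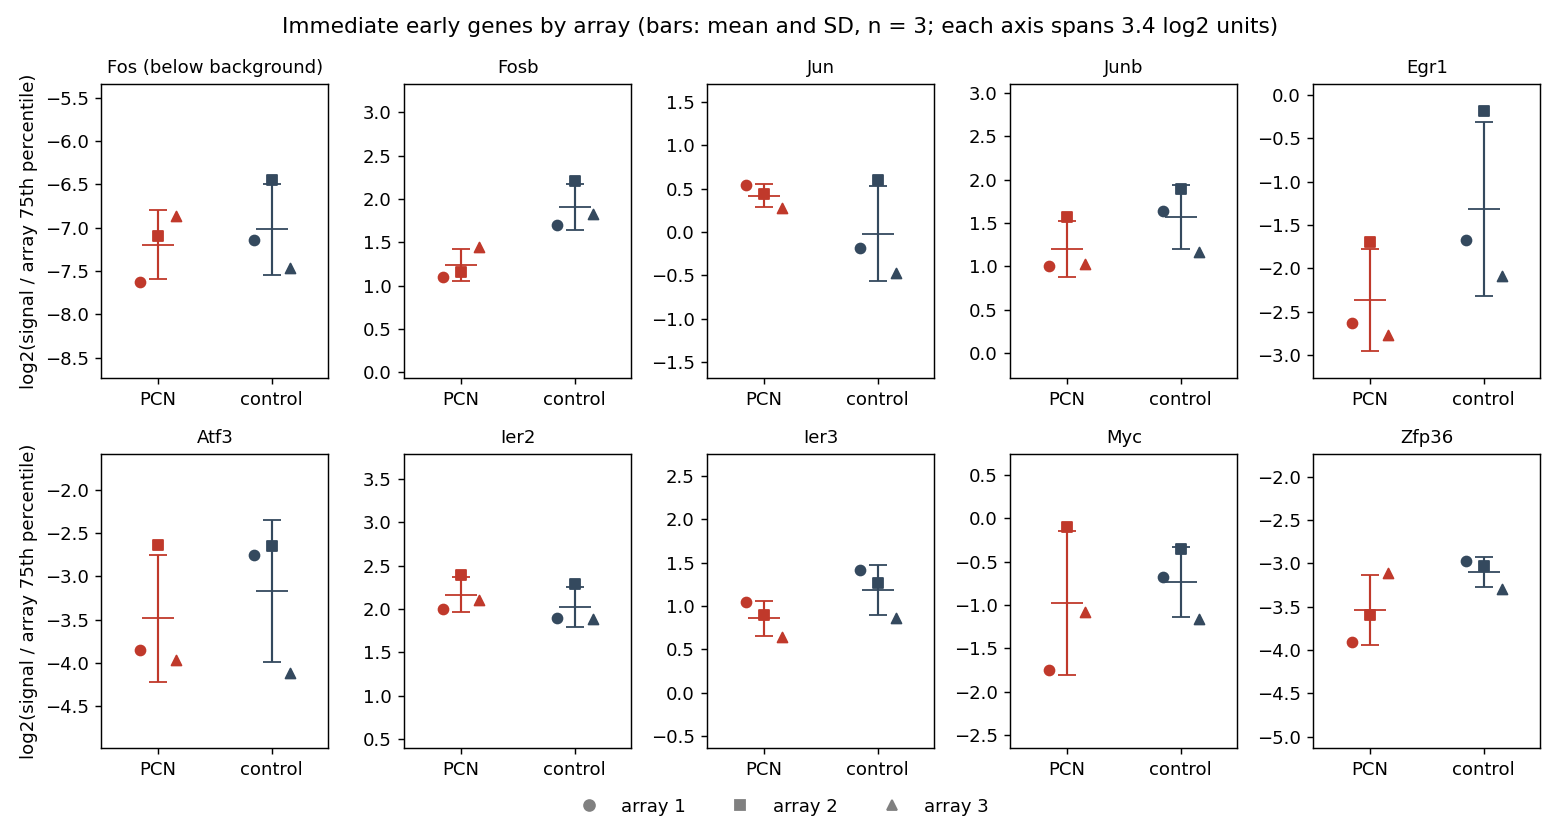
Log2 level of each of the 10 genes on every array. The y axis is log2 of signal over the array's 75th percentile, each panel spanning the same number of log2 units, with PCN left and control right. Marker shapes give the array number, and bars give mean and SD of 3 arrays. The Fosb groups do not overlap (1.10 to 1.44 with PCN, 1.70 to 2.21 in controls), and the other 9 panels overlap.

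The PCN arrays lay on 1 slide with 1 scan and the control arrays on another, and an effect of slide cannot be told apart from one of PCN. The 75th percentile of signal ran from 488 to 627 on PCN arrays and from 633 to 758 on control arrays. Between 61.6% and 65.8% of spots were well above background on PCN arrays, against 65.5% to 68.9% on control arrays, and 0 spots were saturated. Over all tested genes 716 were called higher and 2547 lower. That split was 1426 to 1773 under quantile normalization, 1093 to 2027 under cyclic loess, 792 to 1432 under normexp, 5110 to 1645 under median scaling and 169 to 4579 under spike-in scaling. Hepatocyte markers were checked for the labelled tissue, with 10 of 10 well above background on every array, Alb, Ttr and Cps1 among them.

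Fosb, an AP-1 subunit that dimerises with Jun proteins, was lower with PCN. Its log2 level was 1.10, 1.16 and 1.44 on PCN arrays 1 to 3, against 1.70, 2.21 and 1.82 on control arrays 1 to 3. Every PCN array lay below every control array, as for 26.7% of all tested genes. Fosb was the only 1 of 9 members whose groups did not overlap in either direction, against 41.4% of all tested genes, and 0 of 9 lay wholly higher, against 14.7%. The change was −0.68 ± 0.17 (SE, n = 3 per group, limma adjusted p = 0.0341), a 1.60-fold lower level, with a 95% interval of −1.07 to −0.28. Its mean was 1.23 ± 0.18 with PCN and 1.91 ± 0.27 in controls (SD, n = 3 each). On the unscaled arrays the processed signal was 1275, 1400 and 1326 with PCN, against 2201, 3504 and 2240 in controls. All are readings of 1 probe with 2 spots per array. The sequence of that probe was not at hand, so what it binds was not checked. The call did not hold without PCN array 1 or 2 or control array 2 or 3 (limma adjusted p = 0.0911, 0.087, 0.0767 and 0.0751), nor under median scaling (−0.34, adjusted p = 0.121) or with no filter on dim probes (adjusted p = 0.0865), and the range over 20 alternatives was 0.0107 to 0.136.

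Fos, the partner subunit by which the AP-1 response is usually read, gave no usable level in these livers. Its probe stood at a processed signal of 3.00, 4.59 and 4.19 on PCN arrays and 4.79, 8.69 and 3.58 on control arrays. None of these was well above background, so no fold change is given for Fos. Fosl1, another Fos family gene, was likewise not tested. Fosl2, named after its values were seen, was tested and gave 0.17 (limma adjusted p = 0.669). The Fosl2 probe cleared background on 2 of 3 PCN and 3 of 3 control arrays.

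Jun, a subunit of AP-1, was on average higher with PCN, without passing the test. Its log2 level was 0.54, 0.44 and 0.28 on PCN arrays 1 to 3, against −0.18, 0.59 and −0.47 on control arrays 1 to 3. Control array 2 lay above all PCN arrays, and the other 2 control arrays lay below them. The change was 0.44 ± 0.27 (SE, n = 3 per group, limma adjusted p = 0.295), with a 95% interval of −0.20 to 1.07. Without control array 2 it was 0.75 (limma adjusted p = 0.0315), and under median scaling 0.78 (adjusted p = 0.0351). Without control array 3 it was 0.21 (limma adjusted p = 0.62), and under spike-in scaling 0.19 (adjusted p = 0.659).

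Junb, a Jun subunit that can oppose Jun at shared sites, read 1.00, 1.57 and 1.03 on PCN arrays 1 to 3 and 1.64, 1.89 and 1.16 on control arrays 1 to 3. Array 2 was the highest in both groups and the groups overlapped. The change was −0.36 ± 0.23 (SE, n = 3 per group, limma adjusted p = 0.324). Its probe has 1 spot per array, so spot error could not be measured for it.

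Differences between subunits within an array do not depend on the scaling between arrays. The log2 level of Jun minus that of Fosb was −0.56, −0.72 and −1.17 on PCN arrays 1 to 3, against −1.88, −1.61 and −2.29 on control arrays 1 to 3. The groups did not overlap, and the difference between their means was 1.11. Jun minus Junb was −0.46, −1.13 and −0.75 on PCN arrays, against −1.82, −1.30 and −1.63 on control arrays, again without overlap and with a difference of 0.80. Each gave p = 0.1 in a two-sided exact permutation test, the smallest p that 3 arrays against 3 allow, and 0.15 after adjustment over 3 pairs. Junb minus Fosb differed by 0.31 with overlapping groups (exact permutation p = 0.5, adjusted 0.5). These pairs were chosen after the values of the members were seen. Neither difference passes a threshold in this design.

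**Figure D3:**
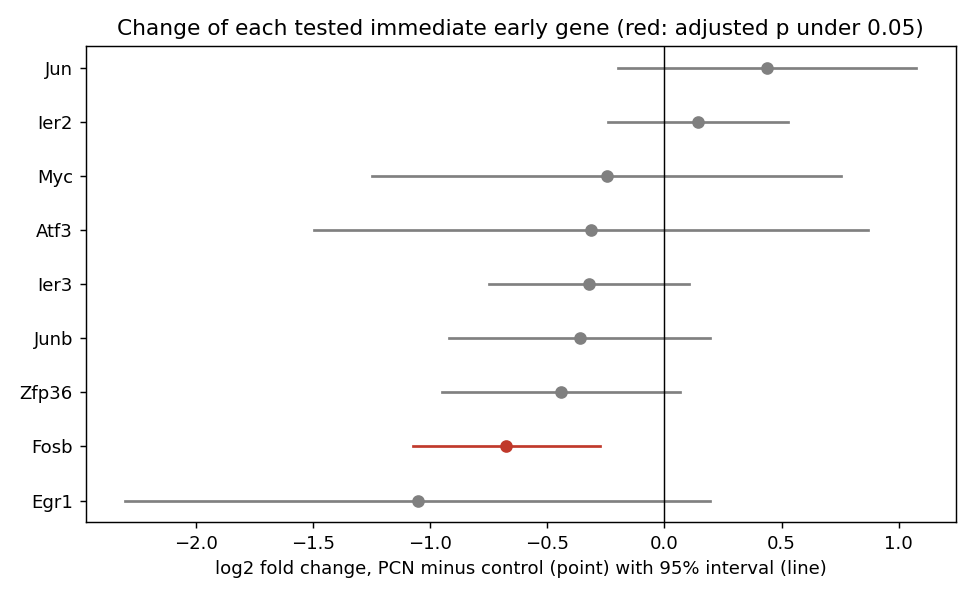
Log2 fold change of the 9 tested immediate early genes. The x axis is PCN minus control, points are fitted changes and lines 95% intervals from limma (n = 3 per group). Of the 9 intervals, only that of Fosb (red) lies clear of 0, and that of Egr1 is the widest, from −2.30 to 0.20.

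Atf3, a stress-induced bZIP factor that can pair with Jun proteins, varied widely between rats of both groups. Its log2 level was −3.85, −2.64 and −3.97 on PCN arrays 1 to 3, and −2.75, −2.65 and −4.12 on control arrays 1 to 3. The 2 lowest PCN arrays lay close to the lowest control array, and the highest PCN array close to the highest 2 controls. The change was −0.31 ± 0.50 (SE, n = 3 per group, limma adjusted p = 0.699), and its interval of −1.50 to 0.87 runs from a fall to a rise.

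Egr1 binds GC-rich sites and is itself driven through CArG boxes such as those printed above. It had the largest average difference of the 9 with all arrays, a size and rank not kept without control array 2. Its log2 level was −2.64, −1.70 and −2.78 on PCN arrays 1 to 3, against −1.68, −0.18 and −2.09 on control arrays 1 to 3. As processed signal this was 95.5, 193 and 71.2 with PCN, against 212, 667 and 149 in controls. PCN array 2 lay between the controls, so the groups overlapped. The change was −1.05 ± 0.52 (SE, n = 3 per group), a 2.07-fold lower mean that did not pass (limma adjusted p = 0.209). Without control array 2 it was −0.49 (limma adjusted p = 0.42), smaller than the −0.53 of Fosb and the 0.75 of Jun in that fit. Without both arrays numbered 2, a choice made after the data were seen, it was −0.82 (limma adjusted p = 0.0615), again the largest of the 9. The SD between arrays was 0.59 with PCN and 1.00 in controls.

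Myc, which promotes ribosome production and growth, showed no difference that its spread could resolve. Its log2 level was −1.75, −0.10 and −1.08 on PCN arrays 1 to 3, and −0.68, −0.35 and −1.16 on control arrays 1 to 3. The PCN group held both the lowest and the highest array of the 6. The change was −0.25 ± 0.42 (SE, n = 3 per group, limma adjusted p = 0.721), and it turned to 0.14 without PCN array 1.

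Ier2, a small nuclear protein, was close in both groups, at 2.00, 2.39 and 2.11 on PCN arrays 1 to 3 and 1.90, 2.28 and 1.88 on control arrays 1 to 3. Its change was 0.15 ± 0.16 (SE, n = 3 per group, limma adjusted p = 0.572), the narrowest interval of the 9 at −0.24 to 0.53. Ier3, a regulator of cell survival, read 1.04, 0.89 and 0.64 on PCN arrays 1 to 3 and 1.42, 1.27 and 0.86 on control arrays 1 to 3. Only control array 3 fell within the PCN range, and the change was −0.32 ± 0.18 (limma adjusted p = 0.253). Zfp36 read −3.91, −3.60 and −3.11 on PCN arrays 1 to 3, against −2.97, −3.03 and −3.29 on control arrays 1 to 3. PCN array 3 lay within the control range, and the change was −0.44 ± 0.21 (limma adjusted p = 0.198). Without PCN array 3 Zfp36 gave −0.65 (adjusted p = 0.0482), and under spike-in scaling −0.69 (adjusted p = 0.0461). It gave −0.26 without PCN array 1 (adjusted p = 0.413), −0.22 under cyclic loess (0.533), −0.17 under quantile normalization (0.597), −0.12 with normexp (0.556) and −0.10 under median scaling (0.717).

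The spread between rats was wide for several of these genes. The residual SD of log2 level within groups had a median of 0.35 over the 9 members, against 0.17 over all tested genes, and all 9 members lay above that median. Egr1 (0.82), Atf3 (0.78) and Myc (0.65) lay at percentiles 98.6, 98.4 and 97.3 of all tested genes. Ier2 (0.22) and Fosb (0.23) were the steadiest, at percentiles 62.8 and 66.1. Repeat spots of a probe on 1 array give the error of reading a spot, and leave out labelling and hybridisation. For Myc, read by 10 spots, the SD between spots was 0.035 to 0.09 on an array, and for Egr1, read by 2 spots, 0.013 to 0.21. For Atf3 (2 spots) it was 0.018 to 0.23, and for Ier2, with 8 to 10 usable spots, 0.03 to 0.044. For Fosb (2 spots) it was 0.047 to 0.14, and for Zfp36 (2 spots) 0.031 to 0.17, beside a residual SD between rats of 0.23 and 0.31.

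High values of different members fell on the same arrays. Control array 2 was the highest control for 7 of 9 members (Fosb, Jun, Junb, Egr1, Atf3, Ier2 and Myc), as it was for 38.2% of all tested genes, and control array 3 was the lowest for 8 of 9, against 32.7% of all. PCN array 2 was the highest PCN array for 5 of 9 (Junb, Egr1, Atf3, Ier2 and Myc), against 30.1% of all tested genes, and the lowest for 0 of 9, against 45.3% of all. Egr1 on control array 2 stood 1.13 above its group mean, and Myc and Atf3 on PCN array 2 stood 0.88 and 0.85 above theirs. The 5 genes highest on array 2 in both groups compare with 10.2% of all tested genes, and the shared number 2 carries no stated link between the rats. Without both arrays numbered 2, an alternative chosen after the data were seen, 0 of 9 members passed the test, Fosb giving −0.49 (limma adjusted p = 0.136).

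**Figure D4:**
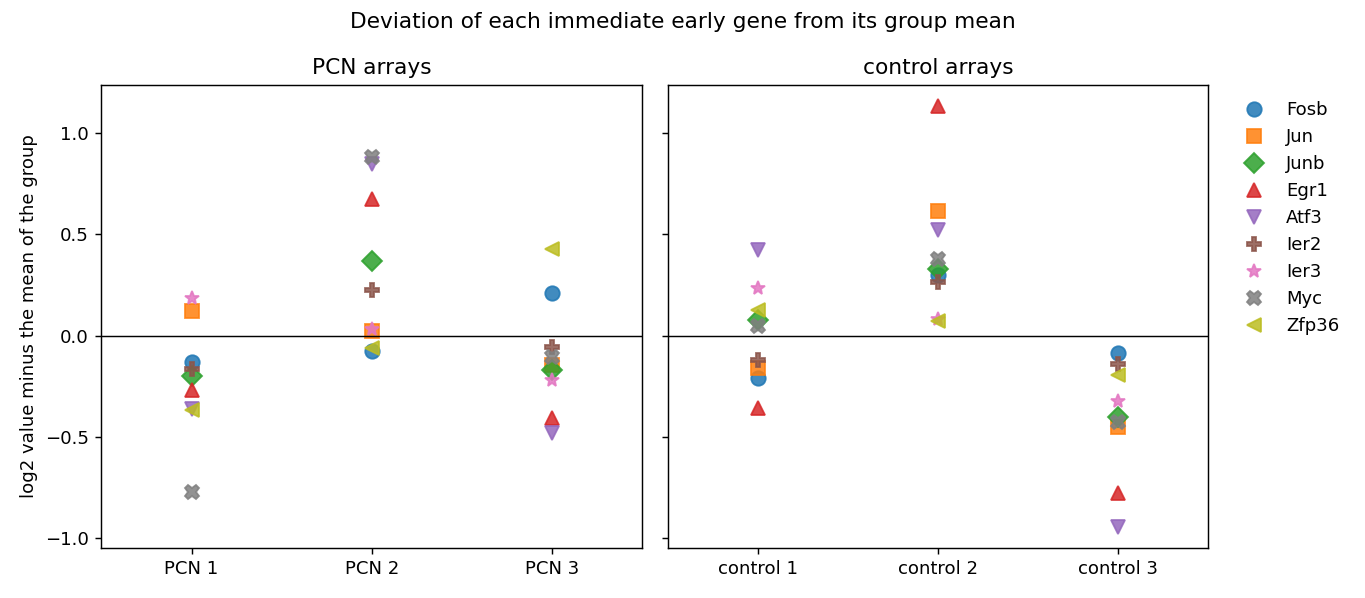
Deviation of each tested immediate early gene from the mean of its own group, by array, PCN left and control right. The y axis is in log2 units and each marker is a gene. On control array 2 all 9 genes lie above 0 and on control array 3 all 9 lie below it, while PCN array 2 is the highest PCN array for Junb, Egr1, Atf3, Ier2 and Myc.

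Genes whose levels followed Egr1 and Fosb most closely over the 6 arrays were found by Pearson correlation, given as a description since the arrays share scaling, slide and treatment. For Egr1 these were Pag1 (r = 0.998), St3gal2 (0.996) and RT1-T24-2 (0.986). For Fosb they were Ppy (0.997), H1f8 (0.991) and Cd24 (0.989). In all, 17 genes with a symbol passed r = 0.95 with Egr1 and 135 with Fosb.

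Other serum-induced early genes moved in both directions. Of 28 tested, 3 rose, 3 fell and 22 did not pass, with a median log2 fold change of −0.14. Over all tested genes 4.37% rose and 15.5% fell. Gadd45b, a stress-induced partner of MAP kinase kinases, rose by 3.76 ± 0.17 (SE, n = 3 per group, limma adjusted p = 1.69e-04), its log2 level being 3.83, 3.50 and 3.58 on PCN arrays against −0.14, 0.14 and −0.39 on control arrays. The related Gadd45g fell by 1.54 ± 0.25 (adjusted p = 7.93e-03), and Klf10, a TGF-beta inducible zinc finger factor, fell by 1.06 ± 0.18 (adjusted p = 9.33e-03). These 3 calls held under all 19 alternatives run for them. Plk3, a stress-responsive kinase, rose by 1.44 ± 0.35 (adjusted p = 0.0313), a call lost without PCN array 2 or 3 or control array 1 or 3 (adjusted p = 0.0701, 0.0552, 0.0881 and 0.0883) and with no filter on dim probes (0.0726). Named after their values were seen, Nfkbia rose by 0.44 and lost the call in 5 of 6 fits with 1 array left out. Socs3 fell by 0.75 and lost it without control array 1 or 3 (adjusted p = 0.0607 and 0.0555), under quantile normalization (0.0647), median scaling (−0.41, 0.101) and cyclic loess (0.0562), and with no filter on dim probes (0.0529). Egr2, Egr4, Nr4a3, Arc and Per1, classic early genes, were not above the filter on dim probes.

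Upstream of these genes, 2 of 9 tested growth factor and cytokine ligands fell and 0 rose, against 15.5% and 4.37% of all tested genes, with a median of −0.28. Tgfa, a ligand of the EGF receptor, fell by 1.10 ± 0.13 (SE, n = 3 per group, limma adjusted p = 2.90e-03), its log2 level being −1.60, −1.78 and −1.35 on PCN arrays against −0.54, −0.42 and −0.46 on control arrays. Every PCN array lay below every control array for Tgfa, and the call held under all 19 alternatives. Lif, a cytokine of the interleukin 6 family, fell by 0.69 ± 0.10 (adjusted p = 7.09e-03), a call lost under quantile normalization (−0.37, adjusted p = 0.079), median scaling (−0.35, 0.0651), cyclic loess (−0.43, 0.0682) and normexp (−0.12, 0.481). The ligands Hbegf, Areg, Ereg, Btc and Il6 were not above the filter. Among 22 receptors and kinases 2 rose and 1 fell, with a median of 0.10. Erbb3, a receptor of the EGF receptor family, rose by 0.68 ± 0.12 (adjusted p = 0.0119, and 0.0661 under spike-in scaling). The kinase Araf rose by 0.42 and Map2k1 fell by 0.38 (adjusted p = 0.0494 for both), calls lost in 5 and 6 of 6 fits with 1 array left out.

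Of the nuclear factors between kinases and early genes, 0 of 4 tested (Srf, Elk3, Elk4 and Stat3) passed, against 19.9% of all tested genes. Stat3 gave −0.52 (limma adjusted p = 0.0555, and 0.033 without PCN array 2) and Elk3 0.31 (0.0869). Among the feedback inhibitors of the pathway 1 of 8 fell and 0 rose, against 15.5% and 4.37% of all tested genes, with a median of 0.23. Spry4, an inhibitor of receptor tyrosine kinase signalling, fell by 0.82 ± 0.15 (limma adjusted p = 0.0132, and 0.0862 without both arrays numbered 2). Of 18 genes listed as AP-1 partners 0 passed, against 19.9% of all tested genes, with a median of 0.17. All are bZIP factors except the co-activator Crebbp. Among them Jdp2, a repressor of AP-1, gave −0.57 (limma adjusted p = 0.0834). It passed without PCN array 1 (0.0382) and under spike-in scaling (0.0193), and turned to 0.05 with normexp. The Jdp2 probe cleared background on 1 of 3 PCN and 3 of 3 control arrays. Creb1 gave 0.24 (adjusted p = 0.135). It passed under quantile normalization (0.39, 0.0335) and median scaling (0.58, 0.0122), and turned to −0.01 under spike-in scaling.

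Downstream lists are read beside the 4.37% of all tested genes called higher and 15.5% called lower. Of 6 tested Egr1 co-factors and targets 0 passed. Nab2, a co-repressor that Egr1 itself induces, gave −0.53 (limma adjusted p = 0.256), at −1.68, −1.10 and −1.20 on PCN arrays against −0.97, −0.17 and −1.24 on control arrays. In the Myc network 1 of 20 fell, the cyclin Ccnd2 (by 0.43, adjusted p = 0.0376), a call lost in 6 of 6 fits with 1 array left out. Among Zfp36 relatives and mRNA decay factors 1 of 8 fell, Zfp36l2, a close relative of Zfp36, by 0.78 ± 0.15 (adjusted p = 0.0154; 0.0506 without control array 2). In the integrated stress response, which induces Atf3, 1 of 14 rose and 0 fell, with a median of 0.25. That gene, Slc3a2, an amino acid transporter subunit, rose by 0.78 ± 0.20 (adjusted p = 0.0356), a call lost in 5 of 6 fits with 1 array left out.

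**Figure D5:**
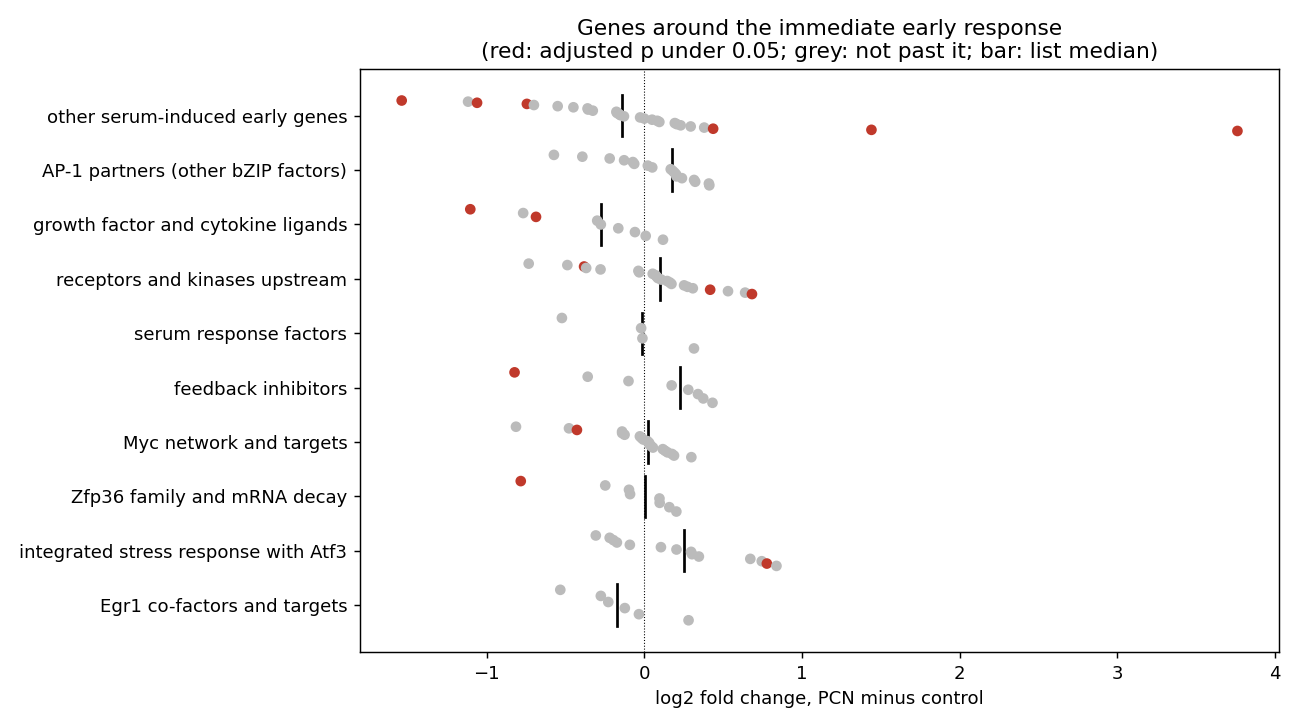
Log2 fold changes of genes around the immediate early response, by list. The x axis is PCN minus control, each point is a tested gene (red where called), and bars are list medians. Gadd45b lies apart at 3.76, and list medians run from −0.28 to 0.25.

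Markers of the other cells of liver were read beside these genes, since early genes are expressed in all of them. Levels are summed as linear ratios to the 75th percentile of the array. Counts of called markers are read beside the 4.37% of all tested genes called higher and 15.5% called lower. Of 12 macrophage markers 1 rose (Cd14, by 1.31 ± 0.15, adjusted p = 2.72e-03) and 0 fell, with a median of −0.34, the others giving −0.52 to −0.03, and sums of 64.5 to 83.9 on PCN arrays and 77.7 to 88.1 on control arrays. Of 7 lymphocyte markers Cd3d and Lck fell, with a median of −0.49 and sums of 0.482 to 0.704 against 0.718 to 0.867. The Lck probe cleared background on 1 of 3 PCN and 3 of 3 control arrays, so it passed the filter through the controls alone, and it turned to 0.06 with normexp. Of 3 neutrophil markers Fcnb fell, with a median of −0.52 and sums of 0.451 to 0.857 against 0.666 to 1.30, and of 6 endothelial markers Cdh5 fell, with a median of −0.11 and 23.1 to 26.4 against 24.3 to 26.8. Of 10 stellate cell markers Rgs5 rose and Lrat and Acta2 fell, with a median of −0.14 and 19.3 to 22.9 against 21.6 to 23.1. Of 4 bile duct markers 0 passed, Epcam giving 0.60 (limma adjusted p = 0.0586) and Krt19 −0.41 (0.21; 0.0231 under spike-in scaling). Epcam passed in 7 of 19 alternatives. Among them were quantile normalization (0.0303), median scaling (0.00755), cyclic loess (0.0407), normexp (0.0347) and the fit without control array 2 (0.0128). Of 10 hepatocyte markers Hnf4a rose (by 0.63 ± 0.13, adjusted p = 0.016), with 1975 to 2506 against 2139 to 2262. Cd3e, Ngp, Elane, Csf3r, Cxcr2 and Cftr did not pass the filter on dim probes. Lck, Acta2, Fcnb and Cdh5 lost the call in 4, 4, 5 and 6 of 6 fits with 1 array left out, and Hnf4a without control array 3 (adjusted p = 0.0565). These 4 and Cd3d also lost it under median scaling (limma adjusted p = 0.0805, 0.0989, 0.188, 0.32 and 0.0868), and Hnf4a under spike-in scaling (0.0824). The calls of Cd14, Rgs5 and Lrat held under every scaling, but Rgs5 and Lrat lost theirs without both arrays numbered 2 (limma adjusted p = 0.0539 and 0.0533). The part of these cells in the result for Fosb was not tested.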

How the data were processed

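Liver RNA (100 ng per rat) was labelled with Cy3 and hybridised to Agilent 1-colour arrays, per the labels. The scanner software was Feature Extraction 10.7.3.1 from Agilent, per the file headers, and its deposited intensity, the processed signal, is background-subtracted within an array. The deposited quality marks of other kinds (well above background, saturated, outlier) are 0 or 1 per spot, per the file headers. The authors' deposited value table holds a linear ratio, the processed signal over the 75th percentile of its array to 2 decimals, by comparison with the scanner values. Its scale and direction matched on each array over 13319 bright spots, with no centring of genes, and its column medians were 0.08 on PCN and 0.09 on control arrays.

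In R 4.3.3, outlier and control spots were left out and log2 signal minus the 75th percentile was averaged over spots. Probes with at least 50% of their spots well above background on all 3 arrays of a group were kept (18329 of 30367), and a gene is its brightest probe. Of 30367 probes, 18004 matched 1 symbol by accession, through a table of the GRCr8 assembly. Groups were compared with limma 3.58.1 (lmFit, eBayes, two-sided), tested on simulated data. P-values measure the spread between 3 rats per group. The number of arrays limits precision. The scanner files used here hold no mean signal, so normexp (offset 50) used median signals, and the deposited ratios were tested as log2(value + 0.01). The members and lists were chosen with earlier results of these data known. Genes named are the 10 members, up to 4 called genes per list by size (or 2 of lowest p), and the 3 most correlated with Egr1 and with each called member. Alternatives covered scaling, background, filters, probe choice, variance model, replicate block and left-out arrays.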

Additional observations from a re-analysis of the deposited data

How the results depend on the processing

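Over 20 alternatives and 9 members, 162 of 180 values kept their direction and their side of the threshold, 8 lost the call, 5 gained one and 5 changed sign. The alternatives of probe choice, dim-probe filter, variance model and replicate block could change the p-value of a member but not its fold change. For direction they are therefore no check. Fosb was lower in all 20, those included, from −0.92 to −0.34. The changes of sign were Atf3 (0.024), Ier3 (0.013) and Myc (0.090) under median scaling, Ier2 (−0.10) under spike-in scaling and Myc (0.14) without PCN array 1 (from −0.69 to 0.14 over the fits with 1 array left out), and the cause was not tested. The number of members past the threshold was 1 as reported, 2 under spike-in scaling, 0 with no filter on dim probes (10 members, more genes tested), 0 without both arrays numbered 2, and 0 to 2 with 1 array left out. Under median scaling and without control array 2 the number was also 1, but the member called was Jun, higher, and not Fosb. The median of the members ran from −0.57 to 0.01. Over all genes the count of 3263 was 6755 under median scaling, 1967 with no filter, 1616 without both arrays numbered 2, and 2023 to 2592 with 1 array left out. Labels number replicates 1 to 3 in both groups without stating a pairing, and deviations of same-numbered arrays correlated at −0.10, −0.03 and −0.05. With the replicate block 2067 genes passed, and Fosb gave adjusted p = 0.0692 and Egr1 0.0366, with 1 member called. Araf, Ccnd2, Cdh5, Hnf4a, Lck, Map2k1, Nfkbia, Plk3, Slc3a2, Socs3 and Zfp36l2 also lost their calls (adjusted p = 0.0549 to 0.128). Signal over background limits Fos, which was not well above background on any of 6 arrays.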
